A study of Mus musculus with 2 samples.

Results

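Type 1 conventional dendritic cells (cDC1) of the mouse colon were read from droplet single-cell RNA sequencing of colonic lamina propria, the connective tissue under the gut epithelium. They were chosen on raw counts of unique molecular identifiers (UMIs, each standing for 1 captured RNA molecule). A barcode was a member with at least 2 UMIs of Xcr1 and Clec9a together, at least 10 of H2-Ab1, fewer than 10 of C1qa, C1qb and C1qc together, fewer than 3 of Fscn1, and none of Cd3d, Cd3e, Cd3g or Ms4a1. It also had to hold at least 200 genes and at most 20% mitochondrial UMIs. Of 8500 barcodes kept over the series, 450 were members, 348 of 5890 in the library labelled lncly6c-deficient and 102 of 2610 in the library labelled wild type.

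Both libraries came from male C57BL/6 mice of 6 to 8 weeks kept free of specific pathogens. In the deficient mice the gene of the long noncoding RNA lncly6c (1700016P04Rik) was deleted with CRISPR-Cas9, on a C57BL/6J background, and the control was wild type. The number of mice behind each library is not given in the sources used here. The series asks about macrophage differentiation in the colon, and the dendritic cells were captured along with the macrophages. Each genotype was 1 library, so no difference below has a replicate check, none was tested, and the intervals, all at 95%, cover counting error only. Whether a gap between the libraries comes from the genotype, the mice or the handling cannot be told apart.

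In the names of the files the genotype words are exchanged relative to the sample labels. Groups here follow the labels, and with the words of the file names every direction given between the libraries would be exchanged. The deleted gene (plus strand of chromosome 6, 13413337 to 13415996, mm10) had 0 UMIs in both libraries, in all barcodes, and so gave no check of the labels. The libraries shared 7 barcode sequences, none of them in a cDC1 member.

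The deficient-labelled library held 54773076 UMIs in 6133 barcodes, against 23384895 UMIs in 3020 barcodes of the wild-type-labelled library. Its cDC1 were shallower, with a median of 16986.5 UMIs and 3335.5 genes per barcode, against 21828.5 UMIs and 3855 genes in wild-type-labelled cDC1. Summed over members, 6283729 UMIs were read in deficient-labelled and 2344155 in wild-type-labelled cDC1. Levels are given as CPM, the UMIs of a gene per 1000000 UMIs of the summed members, a scale on which 1 gene can be compared between groups but different genes cannot be ranked per length.

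The cDC1 lineage is the dendritic cell that excels at cross-presentation, the loading of peptides from engulfed dead cells onto MHC class I for CD8 T cells. In mice it depends on the transcription factors IRF8 and BATF3, senses dead cells through the C-type lectin CLEC9A (also called DNGR-1), and follows the chemokine XCL1 from natural killer and T cells through its receptor XCR1. In the gut many cDC1 carry the integrin CD103, of which Itgae encodes the alpha chain, while the other main lineage, cDC2, depends more on IRF4 and presents mainly on MHC class II. After maturation both turn on the chemokine receptor gene Ccr7 and travel to the draining lymph node.

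Xcr1 and Clec9a chose the members, so their levels are a description. Xcr1, on chromosome 9 from 123852315 to 123862029 on the minus strand, had 180 CPM (interval 170 to 191) in deficient-labelled and 146 CPM (131 to 162) in wild-type-labelled cDC1. Clec9a, on chromosome 6 from 129408862 to 129424763 on the plus strand, had 91.7 CPM (84.3 to 99.5) in deficient-labelled and 88.3 CPM (76.7 to 101) in wild-type-labelled cDC1. The intervals of the libraries overlapped for Clec9a and not for Xcr1. Members with at least 1 Xcr1 UMI were 88.2% of the deficient-labelled and 87.3% of the wild-type-labelled members. Among B cells gated on Ms4a1 and Cd79a, which lack both receptors and carry free RNA, 0.962% of 208 deficient-labelled barcodes and 0 of 43 wild-type-labelled ones (upper bound 8.22%) had an Xcr1 UMI, at median depths of 3936 and 4786 UMIs.

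The other markers were not used by the rule. Cadm1, a cell adhesion gene on chromosome 9 from 47530173 to 47857637, had 115 CPM in deficient-labelled and 96.4 CPM in wild-type-labelled cDC1. In cDC2, gated on at least 2 Cd209a UMIs and none of Xcr1 or Clec9a, Cadm1 was near absent at 1.69 CPM in the deficient-labelled and 1.21 CPM in the wild-type-labelled library. That is a log2 ratio of cDC1 over cDC2 of 6.09 (5.43 to 6.83) in the deficient-labelled and 6.32 (5.31 to 7.54) in the wild-type-labelled library. The gene was not particular to cDC1, since macrophages rich in C1q had 54.5 CPM in the deficient-labelled and 51.0 CPM in the wild-type-labelled library.

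Naaa, which encodes a lysosomal amidase and lies on chromosome 5 from 92257659 to 92278170, had 404 CPM in deficient-labelled and 541 CPM in wild-type-labelled cDC1. In cDC2 it had 155 CPM in the deficient-labelled and 130.1 CPM in the wild-type-labelled library. Mature migratory dendritic cells, with at least 3 Fscn1 UMIs, had 12.7 CPM in the deficient-labelled and 12.1 CPM in the wild-type-labelled library, so Naaa was far higher in cDC1 than in them. Itgae, on chromosome 11 from 73090583 to 73147446, had 190 CPM in deficient-labelled and 155 CPM in wild-type-labelled cDC1, against 41.8 and 66.6 CPM in cDC2 of the deficient-labelled and wild-type-labelled library. The 3 markers free of the rule, Naaa, Cadm1 and Itgae, were thus higher in cDC1 than in Cd209a cDC2 in both libraries, and the label as cDC1 was read from these 3. Itgae was not particular to cDC1. Another cDC2 group, gated on Plet1 and Itgae, held 41 deficient-labelled and 7 wild-type-labelled barcodes and carries Itgae by its gate.

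**Figure D1:**
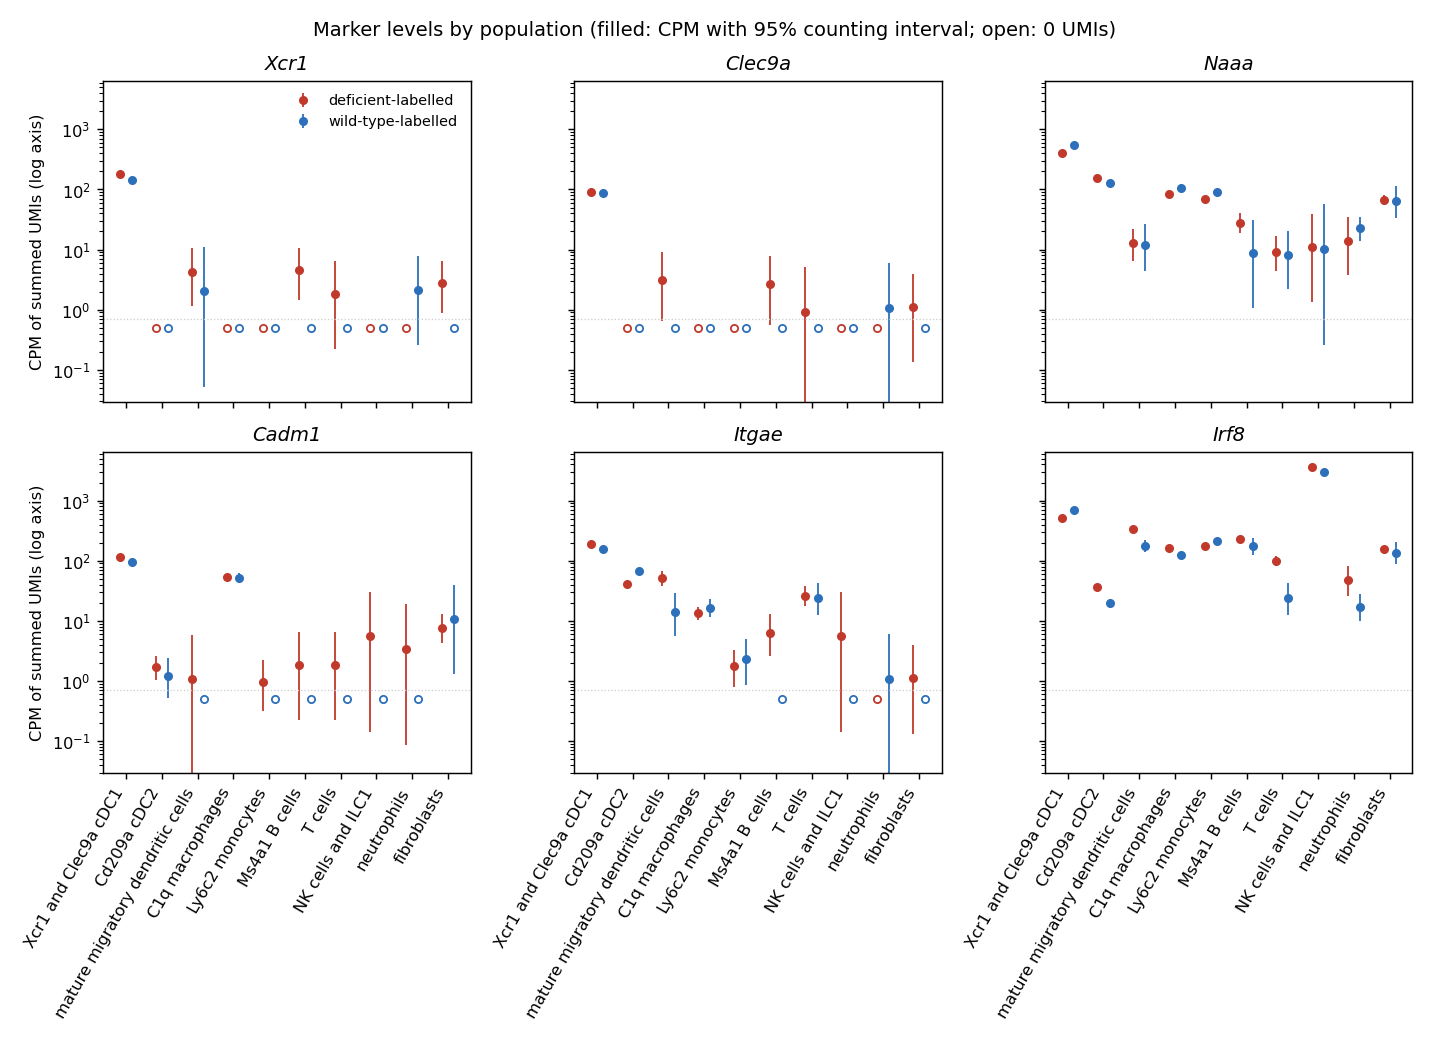
Levels of the 5 cDC1 markers and of Irf8 in CPM (log axis) in each cell population, with deficient-labelled and wild-type-labelled libraries side by side. Bars are 95% exact Poisson intervals. Open circles below the dotted grey line stand for 0 UMIs and sit at an arbitrary height. Cadm1 is at 115 CPM (deficient-labelled) and 96.4 CPM (wild-type-labelled) in cDC1 and at 1.69 and 1.21 CPM in Cd209a cDC2. Xcr1 and Clec9a are absent from cDC2, C1q macrophages and Ly6c2 monocytes by their gates.

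The threshold on Xcr1 and Clec9a fell within a gradient. Members with exactly 2 UMIs of both genes together were 99 of the deficient-labelled and 23 of the wild-type-labelled library. They had 492 CPM of Irf8 in the deficient-labelled and 506 CPM in the wild-type-labelled library. Barcodes that passed every other criterion with exactly 1 such UMI were 261 in the deficient-labelled and 82 in the wild-type-labelled library, with 277 and 291 CPM of Irf8. The barcodes just outside thus still held more Irf8 than Cd209a cDC2, which had 37.0 CPM in the deficient-labelled and 19.7 CPM in the wild-type-labelled library. Members just inside held less Cd209a than those barcodes, 187 against 308 CPM in the deficient-labelled and 251 against 409 CPM in the wild-type-labelled library.

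Members were a larger share of the deficient-labelled library. They made up 5.91% (exact Clopper-Pearson interval 5.32 to 6.54) of its kept barcodes, against 3.91% (3.20 to 4.72) of those of the wild-type-labelled library, and these intervals do not overlap. Part of that denominator is other cells that differed in share, neutrophils at 1.77% in the deficient-labelled and 9.27% in the wild-type-labelled library, and fibroblasts at 4.24% and 0.690%. Over the barcodes that passed all criteria but Xcr1 and Clec9a, cDC1 were 13.8% (12.5 to 15.2) of 2521 in the deficient-labelled and 11.1% (9.13 to 13.3) of 920 in the wild-type-labelled library, with overlapping intervals. Set against Cd209a cDC2 alone, cDC1 were 27.8% (25.3 to 30.3) of 1254 deficient-labelled and 18.7% (15.5 to 22.2) of 545 wild-type-labelled barcodes. A gate was also applied to kept barcodes with at least 2000 UMIs after thinning them at random to 2000, which evens out depth. It asked for a minimum of 1 UMI of Xcr1 and Clec9a and for less H2-Ab1, with the other limits unchanged. On this gate cDC1 were 4.20% of those barcodes in the deficient-labelled and 2.71% in the wild-type-labelled library.

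The transcription factors that build the lineage were read first against cDC2. At least 2-fold higher in cDC1 in both libraries was 1 of 12 cDC1 transcription factors, and none was as much lower. Their median log2 ratios were 0.05 in the deficient-labelled and 0.16 in the wild-type-labelled library, so most were close to cDC2 levels. Of 10 factors of other dendritic cells, 2 were lower in cDC1 and none higher. Irf8, the master factor of cDC1, had 514 CPM in deficient-labelled and 710 CPM in wild-type-labelled cDC1, against the low cDC2 levels above. The log2 ratio of cDC1 over cDC2 was 3.80 (3.65 to 3.95) in the deficient-labelled and 5.17 (4.92 to 5.44) in the wild-type-labelled library. Batf3, its partner in cDC1, was less set apart, with 67.3 CPM in deficient-labelled and 101 CPM in wild-type-labelled cDC1 against 44.5 and 51.8 CPM in cDC2 of the same libraries. Irf4, the factor of cDC2, was lower in cDC1, with 24.8 CPM in the deficient-labelled and 39.7 CPM in the wild-type-labelled library against 158 and 170 CPM in cDC2. Zeb2, which opposes the cDC1 fate, had 75.8 CPM in deficient-labelled and 70.0 CPM in wild-type-labelled cDC1, against 476 and 359 CPM in cDC2.

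Over all genes, 8872 had at least 100 UMIs in cDC1 and cDC2 of both libraries together. At least 2-fold higher in cDC1 in both libraries were 278 of them (3.13%), among them the rule genes Xcr1 and Clec9a, and at least 2-fold lower were 493 (5.56%). Of the lower genes, 12 rested on a count of 0 in 1 group, and 489 remained with such zeros set to a floor of 3 counts over the group. Since cDC1 and cDC2 were gated on RNA of these same barcodes, the contrast is a description with no test. The median log2 ratio over all 8872 genes was 0.08 in the deficient-labelled and 0.06 in the wild-type-labelled library.

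Among 26 further genes known from mouse cDC1, 23 were measured against cDC2 and 15 of them were higher and none lower, with a median log2 ratio of 1.81 in the deficient-labelled and 2.04 in the wild-type-labelled library. Tlr3, the endosomal receptor for double-stranded RNA, had 26.9 CPM in deficient-labelled and 49.5 CPM in wild-type-labelled cDC1, against 1.16 and 1.82 CPM in cDC2. Ppt1, a lysosomal thioesterase gene, had 506 CPM in deficient-labelled and 512 CPM in wild-type-labelled cDC1, against 41.3 and 43.9 CPM in cDC2. Rab7b, a small GTPase of late endosomes, had 335 CPM in deficient-labelled and 366 CPM in wild-type-labelled cDC1, against 35.8 and 21.9 CPM in cDC2. Each of these 3 genes was higher in cDC1 than in cDC2 in both libraries. Cst3, which encodes the protease inhibitor cystatin C, had 18049 CPM in deficient-labelled and 17452 CPM in wild-type-labelled cDC1, against 6129 and 5930 CPM in cDC2. Cd8a, which marks cDC1 of lymphoid organs, was scarce in these colonic cells, with 32 UMIs in deficient-labelled and 4 in wild-type-labelled cDC1.

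The genes highest in cDC1 over cDC2 by the library with the smaller ratio included some with almost no RNA in cDC2. Barx2, a homeobox gene, had 100 UMIs in deficient-labelled and 61 in wild-type-labelled cDC1 and 0 in cDC2 of both, which at the floor of 3 counts is at least 59.6-fold higher in the deficient-labelled and at least 57.3-fold higher in the wild-type-labelled library. Tlr12, an endosomal receptor for profilin of parasites, had 28.2 CPM in deficient-labelled and 24.7 CPM in wild-type-labelled cDC1, against 0 and 0.757 CPM in cDC2, and C1q macrophages had 38.0 and 35.1 CPM. Igf2r, the receptor that carries enzymes to lysosomes, had log2 ratios of 4.68 (4.03 to 5.41) in the deficient-labelled and 5.34 (4.16 to 6.82) in the wild-type-labelled library. P2ry14, a receptor for UDP-glucose, had log2 ratios of 4.53 (4.15 to 4.93) in the deficient-labelled and 4.05 (3.47 to 4.67) in the wild-type-labelled library. Gcsam, Agpat3, P3h2, Snx22, Itga3, Dbn1 and Ctla2b completed the leading genes together with Irf8, Ppt1, Tlr3 and Cadm1.

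At the other end stood C-type lectin genes of cDC2. Clec10a (CD301a) had 16.7 CPM in deficient-labelled and 18.3 CPM in wild-type-labelled cDC1, against 233 and 213 CPM in cDC2. Mgl2 (CD301b) had 74.3 CPM in deficient-labelled and 53.3 CPM in wild-type-labelled cDC1, against 678 and 606 CPM in cDC2. Cd209b, Clec4g, Klra17, Ehf, Cd300lb, Clca1, Tnfsf8 and Hr were the others of the 10 lowest. For 4 of them the place rests on 0 UMIs in cDC1 of 1 library. At the floor of 3 counts Clca1 was at least 1.31-fold lower in deficient-labelled cDC1, and Cd209b was at least 15.3-fold, Tnfsf8 at least 3.31-fold and Hr at least 3.43-fold lower in wild-type-labelled cDC1. The cDC2 gate required Cd209a, and so the gate itself favours genes that travel with Cd209a on the cDC2 side.

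**Figure D2:**
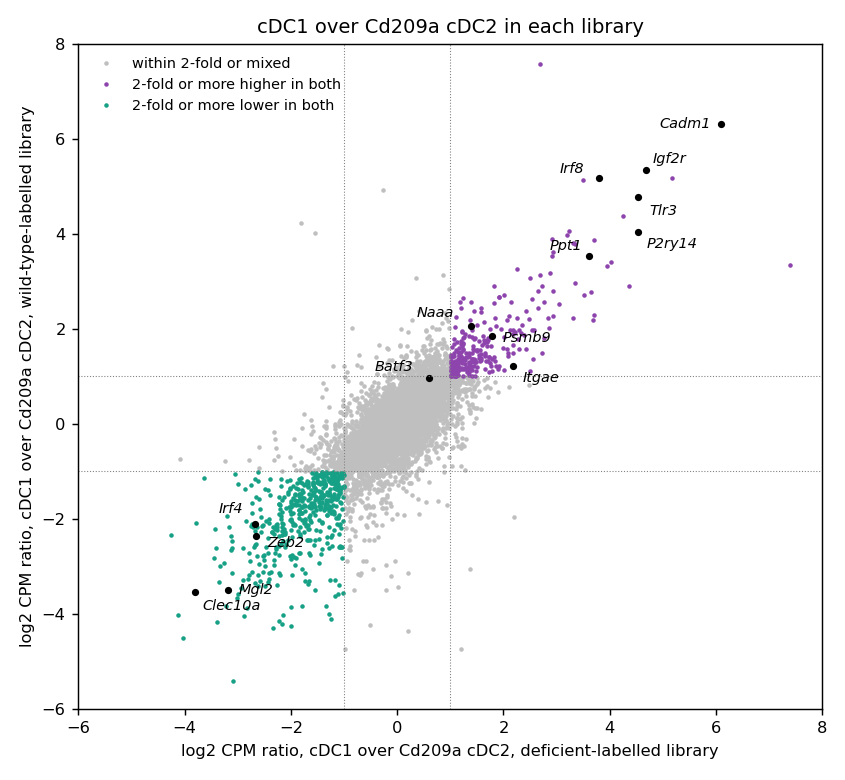
Log2 ratio of summed CPM, cDC1 over Cd209a cDC2, for each gene with at least 100 UMIs, in the deficient-labelled library (horizontal axis) and the wild-type-labelled library (vertical axis); dotted lines mark 2-fold, and genes with 0 UMIs in a group are not drawn. Cadm1, Tlr3 and Irf8 lie high in both libraries, and Clec10a and Mgl2 lie low in both.

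Genes of cross-presentation and of peptide loading were mostly close to cDC2 levels, with 4 of 20 measured genes higher in cDC1 and 1 lower, and median log2 ratios of 0.35 in the deficient-labelled and 0.21 in the wild-type-labelled library. The 4 were Psmb8 and Psmb9, catalytic subunits of the immunoproteasome, and Tap1 and Tap2, which encode the peptide transporter of the endoplasmic reticulum. Psmb9 had 279 CPM in deficient-labelled and 359 CPM in wild-type-labelled cDC1, against 81.1 and 100 CPM in cDC2. Wdfy4, required for cross-presentation by mouse cDC1, had log2 ratios of 1.10 in the deficient-labelled and 0.79 in the wild-type-labelled library and so passed 2-fold in the deficient-labelled library only. Cybb, which encodes a subunit of the phagosomal NADPH oxidase, was the lower one, with 53.0 CPM in deficient-labelled and 58.9 CPM in wild-type-labelled cDC1, against 339 and 345 CPM in cDC2. Of 10 MHC class I genes, none passed 2-fold in either direction. Of 11 MHC class II genes, H2-DMb2 and Ctss were lower in cDC1.

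Maturation genes were lower in cDC1 than in cDC2, 7 of 15 by at least 2-fold in both libraries and none higher, with median log2 ratios of -0.97 in the deficient-labelled and -1.07 in the wild-type-labelled library. Ccr7 showed this, with log2 ratios of -1.55 (-1.62 to -1.47) in the deficient-labelled and -1.91 (-2.07 to -1.75) in the wild-type-labelled library. The rule and the cDC2 gate both left out barcodes with 3 or more Fscn1 UMIs. On the cDC1 side this limit removed 0 barcodes in either library. Genes of S phase and of G2 and M phase leaned to cDC1, 4 of 15 and 5 of 18 higher and none lower. Cdk1, the kinase that drives entry into mitosis, had 21.6 CPM in deficient-labelled and 43.1 CPM in wild-type-labelled cDC1, against 7.93 and 8.32 CPM in cDC2.

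Between the libraries, 6275 genes had at least 100 UMIs in cDC1. At least 1.5-fold higher in deficient-labelled cDC1 were 287 (4.57%) and at least 1.5-fold lower were 304 (4.84%), 591 (9.42%) in all, and these shares are the background for every list below. The median log2 ratio of deficient-labelled over wild-type-labelled cDC1 was -0.02, with quartiles of -0.22 and 0.19. When the barcode richest in a gene was left out of each library for that gene, the split was 387 higher and 242 lower, an alternative chosen after seeing the data. Wild-type-labelled cDC1 were 102 barcodes, and in them 1 barcode often held much of a gene's UMIs.

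Of the markers free of the rule, Naaa had a log2 ratio of deficient-labelled over wild-type-labelled cDC1 of -0.42, Cadm1 of 0.26 and Itgae of 0.29, each within 1.5-fold. The rule genes Xcr1 and Clec9a, given as a description, were 0.30 and 0.054. Irf8 was -0.47 (-0.55 to -0.38), short of 1.5-fold, and Batf3 was -0.59 (-0.82 to -0.35), just past it. Of 12 cDC1 transcription factors, 2 were higher and 1 lower in deficient-labelled cDC1, with a median of 0.18. The higher ones were Relb, an NF-kB subunit, with 79.7 CPM in deficient-labelled and 50.3 CPM in wild-type-labelled cDC1, and Zfp366 (DC-SCRIPT), with 42.2 and 27.3 CPM. Id2, Nfil3 and the other members lay within 1.5-fold. At a minimum of 1 UMI of Xcr1 and Clec9a, Batf3 was -0.43 and Zfp366 0.30, and Relb was 0.55 as a mean over cells of CPM per cell, all short of 1.5-fold.

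Of 22 further cDC1 genes measured, 4 were lower in deficient-labelled cDC1 and none higher, with a median of -0.06. Tlr3 was the furthest at -0.88 (-1.23 to -0.53). After thinning to 2000 UMIs, 4.61% (2.66 to 7.38) of 347 deficient-labelled and 15.7% (9.24 to 24.2) of 102 wild-type-labelled cDC1 had a Tlr3 UMI, against 25.3% and 46.1% without thinning. No B cell of either library had one (upper bounds 1.78% and 8.22%). Mycl, a Myc family factor that sustains cDC1 numbers, was -0.77 (-1.14 to -0.39), Sept3, a septin gene, was -0.63 (-0.89 to -0.38), and Ifi205, of the interferon-inducible Ifi200 family, was -0.61 (-0.71 to -0.52). Tlr3 was the one of the 4 that was past 1.5-fold in every setting that measured it, and it was too scarce without barcodes of the G2 and M phase list. That setting left out members with at least 2 UMIs of the list after thinning and kept 182 deficient-labelled and 37 wild-type-labelled ones.

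Factors of other dendritic cells differed in both directions, 2 of 10 higher and 2 lower. Notch2, which shapes gut dendritic cells, had 59.8 CPM in deficient-labelled and 96.8 CPM in wild-type-labelled cDC1. Runx3, which restrains dendritic cell activation, had 261 CPM in deficient-labelled and 166 CPM in wild-type-labelled cDC1. Irf4 was -0.68 (-1.06 to -0.29). Rora was 2.18 (1.14 to 3.43), with 30 of its 97 deficient-labelled UMIs in 1 barcode, and 0.078 at a minimum of 1 UMI of Xcr1 and Clec9a. Short of 1.5-fold were also Irf4, at -0.40 without barcodes with a Cd209a UMI, and Notch2, at -0.58 as a mean over cells.

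Genes of antigen presentation lay close between the libraries. None of 20 genes of cross-presentation, 9 of MHC class I or 11 of MHC class II passed 1.5-fold, and their medians were -0.15, 0.09 and 0.01. H2-Ab1, a rule gene, had 10486 CPM in deficient-labelled and 10421 CPM in wild-type-labelled cDC1. Ciita, the master regulator of MHC class II, was the furthest of its list at -0.56 (-0.81 to -0.31), with 60 CPM in deficient-labelled and 88.3 CPM in wild-type-labelled cDC1. Psmb9 was -0.37 (-0.49 to -0.25) and the chaperone gene Calr was 0.32 (0.24 to 0.39). Among 9 genes of costimulation and coinhibition, Lgals9 (galectin-9) was lower at -0.73 (-1.19 to -0.26), or -0.54 at a minimum of 1 UMI of Xcr1 and Clec9a, and Cd86 was within 1.5-fold at 0.46 (0.30 to 0.62).

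Dead cell recognition, the trait that CLEC9A serves, had 8 measured genes of 12, of which 2 were higher and none lower. Timd4 (TIM-4), a receptor for phosphatidylserine, had 99.3 CPM in deficient-labelled and 58.4 CPM in wild-type-labelled cDC1, a log2 ratio of 0.76 (0.50 to 1.04). Lrp1, a scavenger receptor gene, was 0.91 (0.32 to 1.55) from 141 deficient-labelled and 28 wild-type-labelled UMIs. With the gate on thinned UMIs Timd4 was 0.47 and Lrp1 0.22, within 1.5-fold. Havcr2 (TIM-3) was 0.41 (0.24 to 0.58), within 1.5-fold. Macrophages express these genes too, and summed macrophage markers were 211 CPM in deficient-labelled and 104 CPM in wild-type-labelled cDC1, with 4 of 5 measured macrophage markers higher in deficient-labelled cDC1 and none of the 10 at 0 UMIs. Their part in these differences was not tested.

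**Figure D3:**
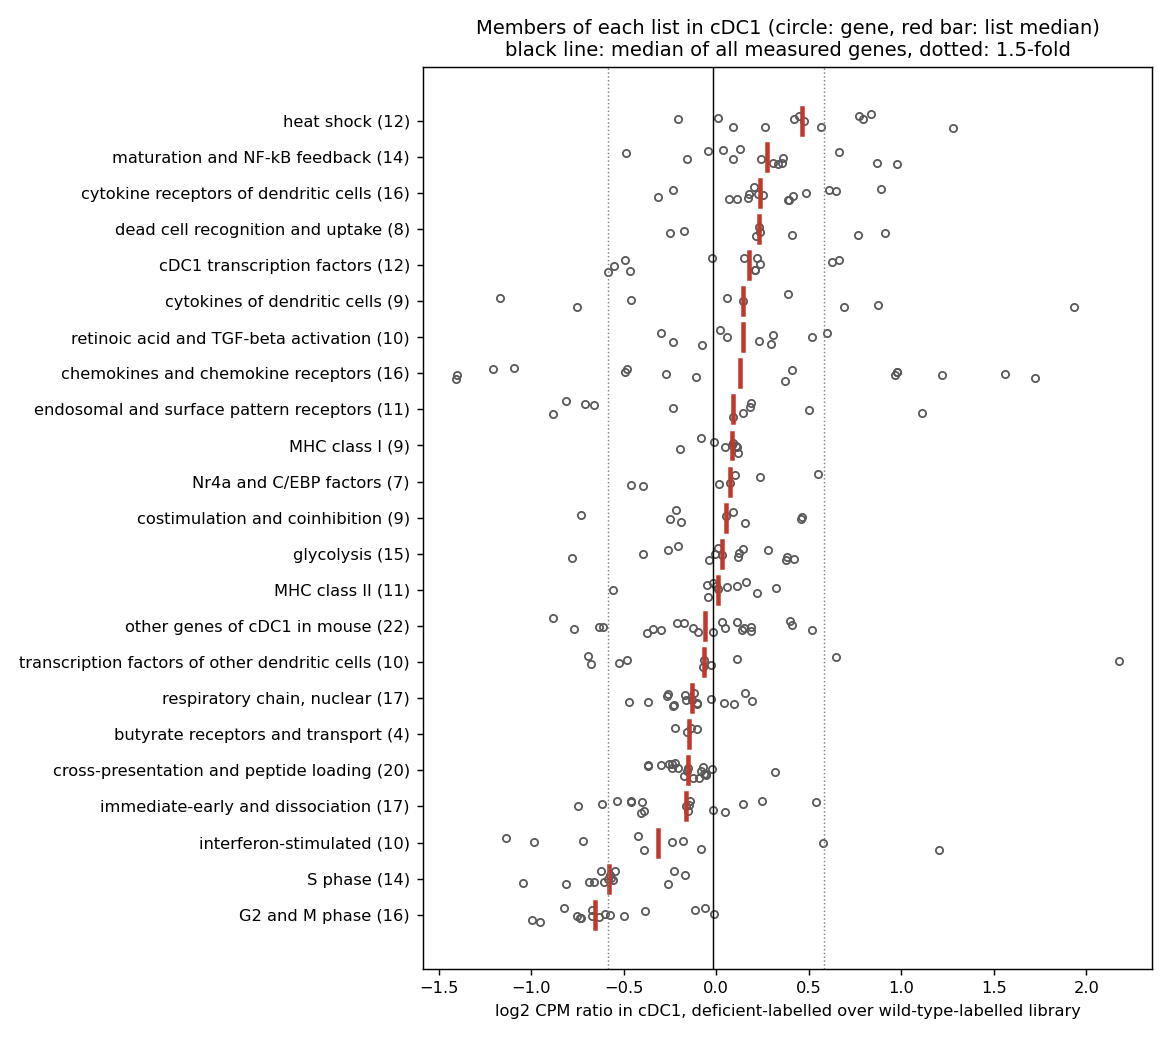
Log2 ratio of deficient-labelled over wild-type-labelled cDC1 for each measured gene of each list, with the list median as a red bar, the number of measured genes in brackets, dotted lines at 1.5-fold and a black line at the median of all genes. S phase and G2 and M phase lie lowest, with medians of -0.58 and -0.65, heat shock lies highest at 0.46, and antigen presentation lies near 0.

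Pattern receptors held 1 gene higher and 4 lower of 11 measured, with a median of 0.09. Cd14, the co-receptor for lipopolysaccharide, had 183 CPM in deficient-labelled and 84.5 CPM in wild-type-labelled cDC1, a log2 ratio of 1.11 (0.89 to 1.34), or 0.52 with the gate on thinned UMIs. The lower genes serve the sensing of nucleic acids. Beside Tlr3, they were its adaptor Ticam1 at -0.81 (-1.30 to -0.31), Ifih1 (MDA5) at -0.71 (-1.28 to -0.12) and Mb21d1 (cGAS) at -0.66. Mb21d1 lies outside the rule for named genes and was named after its value was seen. The other 6 measured genes of the list lay within 1.5-fold. Among them were Unc93b1 and Tmem173 (STING), which also serve nucleic acid sensing and were likewise named after their values were seen. Ticam1 was -0.57 at a minimum of 1 UMI of Xcr1 and Clec9a and Ifih1 -0.55 as a mean over cells, short of 1.5-fold.

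Interferon-stimulated genes leaned lower, with 3 of 10 lower, 1 higher and a median of -0.31. Irf7, a factor that amplifies interferon, had 15.8 CPM in deficient-labelled and 34.6 CPM in wild-type-labelled cDC1. Isg15, a ubiquitin-like modifier, had 32.3 CPM in deficient-labelled and 64.0 CPM in wild-type-labelled cDC1, a log2 ratio of -0.99 (-1.30 to -0.67). Mx1 was -0.72 (-1.27 to -0.16), or -0.36 without barcodes with a Cd209a UMI. Gbp2, a guanylate-binding protein gene, went the other way at 1.21 (0.55 to 1.93), from 136 deficient-labelled and 22 wild-type-labelled UMIs. In cDC2 the median of the list was -0.02. By barcode the libraries were close. After thinning, 24.2% (19.8 to 29.1) of deficient-labelled and 25.5% (17.4 to 35.1) of wild-type-labelled cDC1 had at least 2 UMIs of the list.

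Cytokine genes differed in both directions. Of 9 measured, 3 were higher and 2 lower in deficient-labelled cDC1. Against cDC2, 14 were measured, of which 6 were at least 2-fold lower in cDC1 in both libraries and none higher. Il10, an anti-inflammatory cytokine gene, had 39.1 CPM in deficient-labelled and 10.2 CPM in wild-type-labelled cDC1, a log2 ratio of 1.94 (1.33 to 2.60). Il10 was also higher in deficient-labelled B cells, at 71.8 CPM against 8.76 CPM in wild-type-labelled ones, and in C1q macrophages, at 1284 against 798 CPM. Il1b had 1060.2 CPM in deficient-labelled and 657 CPM in wild-type-labelled cDC1, and 279 CPM in deficient-labelled and 8.76 CPM in wild-type-labelled B cells. Il1rn, which encodes the antagonist of the interleukin-1 receptor, was 0.88 (0.48 to 1.29), with 53.6 CPM in deficient-labelled and 4.38 CPM in wild-type-labelled B cells. Il1b was 0.43 without barcodes of the G2 and M phase list and Il1rn 0.41 with the gate on thinned UMIs, within 1.5-fold. The B cell values rest on 43 wild-type-labelled barcodes, move with these differences, and their part in them was not tested.

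Il12b, the shared subunit of interleukins 12 and 23 and the cytokine most tied to cDC1, had 60.3 CPM in deficient-labelled and 136 CPM in wild-type-labelled cDC1, a log2 ratio of -1.17 (-1.39 to -0.95). It was not particular to cDC1, since cDC2 had 116 CPM in the deficient-labelled and 63.5 CPM in the wild-type-labelled library. In cDC1 the gene sat in few barcodes, 46 of the deficient-labelled and 15 of the wild-type-labelled members. A single barcode held 115 of 379 UMIs in the deficient-labelled and 195 of 318 in the wild-type-labelled library. Without these the ratio was -0.33, within 1.5-fold, and with the gate on thinned UMIs it turned to 1.80. The share of members with an Il12b UMI was close between the libraries, 5.48% (3.33 to 8.42) of deficient-labelled and 4.90% (1.61 to 11.1) of wild-type-labelled cDC1 after thinning, against 0.488% and 0% of B cells. Without thinning the shares were 13.2% and 14.7%. Tnf was -0.75 (-1.09 to -0.41), with 30.4 CPM in deficient-labelled and 51.2 CPM in wild-type-labelled cDC1, and it too turned sign with the gate on thinned UMIs, at 0.62.

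**Figure D4:**
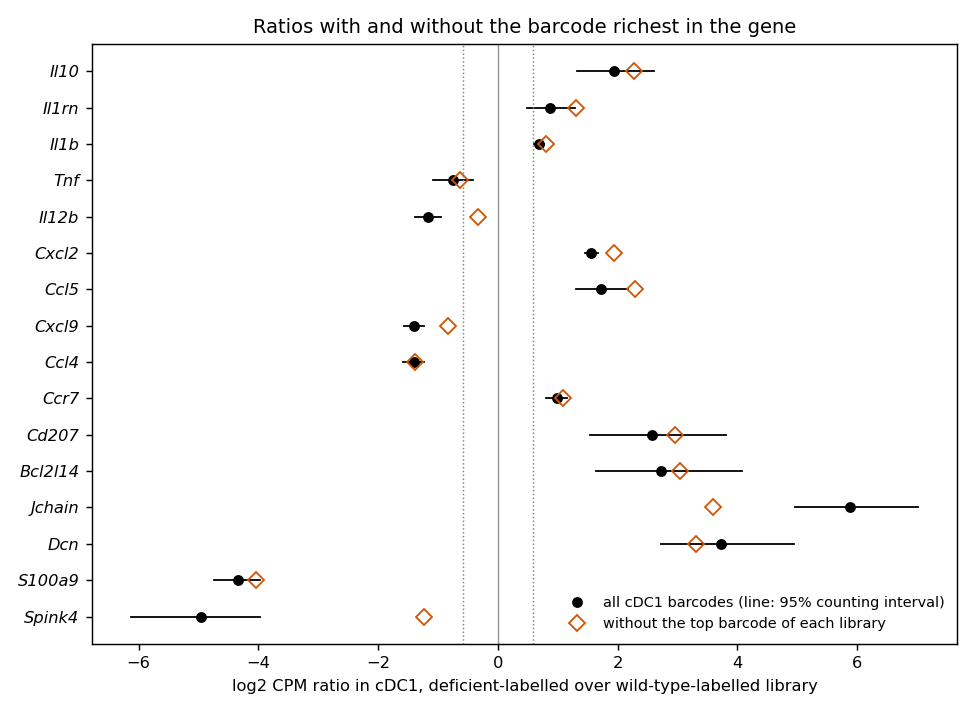
Log2 CPM ratio of deficient-labelled over wild-type-labelled cDC1 for 16 genes (horizontal axis), with all barcodes (black, line for the 95% counting interval) and without the barcode richest in the gene in each library (open diamonds); dotted lines mark 1.5-fold. Il12b is at -1.17 with all barcodes and at -0.33 without the richest ones, Spink4 at -4.95 and -1.23, and Ccl4 at -1.41 and -1.39.

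Chemokine and chemokine receptor genes differed in both directions, 6 of 16 higher and 4 lower with a median of 0.13. Cxcl2, a neutrophil attractant, had 871 CPM in deficient-labelled and 295 CPM in wild-type-labelled cDC1, a log2 ratio of 1.56 (1.45 to 1.68), or 0.23 with the gate on thinned UMIs. In B cells Cxcl2 had 476 CPM in the deficient-labelled and 30.7 CPM in the wild-type-labelled library, and its part in the cDC1 difference was not tested. Ccl5, a T cell attractant, was 1.72 (1.31 to 2.17) with 73.2 CPM in deficient-labelled and 22.2 CPM in wild-type-labelled cDC1, while in cDC2 it was -0.58. Of the Ccl5 UMIs, 107 of 460 in deficient-labelled and 25 of 52 in wild-type-labelled cDC1 lay in 1 barcode, and at a minimum of 1 UMI of Xcr1 and Clec9a the ratio was 0.0035. Ccl4 had 87.7 CPM in deficient-labelled and 232 CPM in wild-type-labelled cDC1, and it was also lower in deficient-labelled cDC2, at -1.90, and C1q macrophages, at -1.54. With the gate on thinned UMIs Ccl4 was -0.19 in cDC1 and Cxcl9 -0.37, both within 1.5-fold. Cxcl9, an interferon-gamma target that attracts T cells, was -1.40 (-1.57 to -1.23), with 222 of its 591 wild-type-labelled UMIs in 1 barcode and -0.83 without the richest barcodes. The others were Ccl2, Ccl9, Ccl22 and Ccr7 among the higher and Cxcl10 and Ccr2 among the lower, named after their values were seen except for Ccr7.

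Ccr7 was the leading maturation gene. It had 284 CPM in deficient-labelled and 144 CPM in wild-type-labelled cDC1, a log2 ratio of 0.98 (0.81 to 1.15), or 0.39 and within 1.5-fold at a minimum of 1 UMI of Xcr1 and Clec9a. After thinning, 28.5% (23.8 to 33.6) of deficient-labelled and 11.8% (6.23 to 19.6) of wild-type-labelled cDC1 had a Ccr7 UMI, and without thinning 66.1% and 45.1% had one. Ly6c2 monocytes, whose gate set no limit on H2-Ab1 or Fscn1, had 13.3% in the deficient-labelled and 8.59% in the wild-type-labelled library after thinning. The wild-type-labelled cDC1 share thus lay near that of these barcodes. Whether their Ccr7 is their own or free RNA was not tested. Ccr7 was higher in deficient-labelled cDC2 too, at 0.62 on the log2 scale. Of 14 maturation genes 3 were higher and none lower, Ccr7, Relb and the tetraspanin gene Cd63, with a median of 0.27 in cDC1 and also 0.27 in cDC2. At a minimum of 1 UMI of Xcr1 and Clec9a, 1 of 14 was higher, and Cd63 was 0.14.

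Genes of the cell cycle had the lowest medians of the lists. Of 16 measured genes of G2 and M phase 10 were lower in deficient-labelled cDC1 and none higher, with a median of -0.65, and of 14 of S phase 7 were lower and none higher, with a median of -0.58. Top2a, the topoisomerase of dividing cells, had 140 CPM in deficient-labelled and 248 CPM in wild-type-labelled cDC1, a log2 ratio of -0.82 (-0.98 to -0.67). Cdk1 was -0.99 (-1.38 to -0.61), Nusap1, of the mitotic spindle, was -0.95 (-1.30 to -0.59), and the survivin gene Birc5 was -0.75 (-0.99 to -0.52). Mcm4, a subunit of the replicative helicase, was -1.04 (-1.49 to -0.59), and Uhrf1, which keeps DNA methylation through replication, was -0.81 (-1.20 to -0.42). At a minimum of 1 UMI of Xcr1 and Clec9a, Cdk1 was -0.56, Birc5 -0.53 and Uhrf1 -0.47. The counts depended on the gate, with 3 of 18 genes of G2 and M phase and 1 of 14 of S phase lower at that minimum, and 4 of 12 and 6 of 10 lower with the gate on thinned UMIs.

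The G2 and M phase list summed to 2267 CPM in deficient-labelled and 3513 CPM in wild-type-labelled cDC1, against 1415 and 1635 CPM in cDC2. After thinning to 2000 UMIs, 47.0% (41.6 to 52.4) of 347 deficient-labelled and 62.7% (52.6 to 72.1) of 102 wild-type-labelled cDC1 had at least 2 UMIs of the list. In cDC2 the shares were 37.1% (33.9 to 40.3) of 903 in the deficient-labelled and 39.4% (34.8 to 44.1) of 442 in the wild-type-labelled library, and the intervals overlap there. The list median in cDC2 was -0.08, against -0.65 in cDC1, and that difference between the lineages was not tested. For S phase the median was -0.58 in cDC1 and -0.57 in cDC2, a difference that was not tested. The list holds abundant genes that resting cells also express, such as Hmgb2 and Tubb5, so these shares are not shares of dividing cells.

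**Figure D5:**
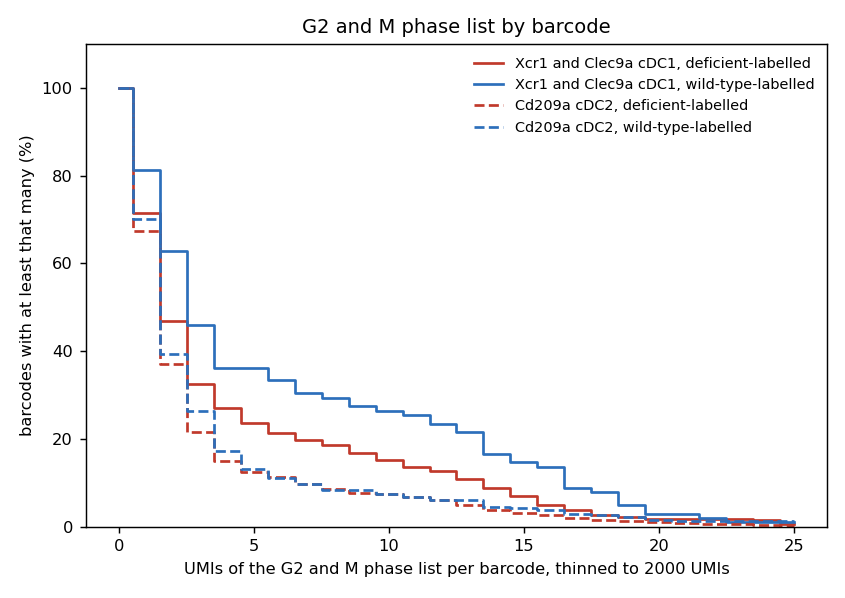
Percent of barcodes (vertical axis) with at least a given number of UMIs of the G2 and M phase list after thinning to 2000 UMIs (horizontal axis), in cDC1 and in Cd209a cDC2 of the deficient-labelled and the wild-type-labelled library. At 2 UMIs cDC1 stand at 47.0% in the deficient-labelled and 62.7% in the wild-type-labelled library, and cDC2 at 37.1% and 39.4%.

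The genes lowest in deficient-labelled cDC1 were largely of the same kind. Esco2, which acetylates cohesin during replication, had 6.68 CPM in deficient-labelled and 25.6 CPM in wild-type-labelled cDC1. Cdca5 (sororin), another cohesin gene, was -1.56 (-2.10 to -1.03), and the centromere gene Cenpk was -1.42 (-2.02 to -0.83). The replication-dependent histone genes Hist1h2ab, Hist1h4d, Hist1h3c and Hist1h2ae had log2 ratios of -1.88, -1.77, -1.50 and -1.44. Histone genes of this cluster are near-identical copies whose reads can be split, so their separate values are uncertain. These 7 genes were at least 1.5-fold lower in every setting in which they had enough UMIs to be measured.

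The other 3 of the 10 lowest were markers of other cells. S100a8 and S100a9, which encode the calprotectin subunits of neutrophils, had 40 and 65 UMIs in deficient-labelled and 232 and 492 UMIs in wild-type-labelled cDC1. Of the wild-type-labelled UMIs, 151 of S100a8 and 254 of S100a9 lay in 1 barcode each. Spink4, of goblet cells, had 97 of its 104 wild-type-labelled UMIs in 1 barcode. Summed neutrophil markers were 22.6 CPM in deficient-labelled and 357 CPM in wild-type-labelled cDC1, with none of the 6 at 0, beside the larger neutrophil share of the wild-type-labelled library.

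Markers of other cells also led the higher side. Jchain, of antibody-secreting cells, had 1229 of its 1425 deficient-labelled UMIs in 1 barcode. Mgp, Dcn and Col3a1, of fibroblasts, had 212 of 257, 150 of 283 and 97 of 212 deficient-labelled UMIs in 1 barcode, and Retnla, of macrophages, had 210 of 405. Without the richest barcodes the log2 ratios were 3.60 for Jchain, 4.06 for Mgp, 3.31 for Dcn, 2.83 for Col3a1 and 4.19 for Retnla. Without thinning, 43.7% of deficient-labelled and 6.86% of wild-type-labelled members had a Jchain UMI. Summed fibroblast markers were 99.6 CPM in deficient-labelled and 9.81 CPM in wild-type-labelled cDC1, with Pdgfra at 0 in wild-type-labelled cDC1, and fibroblasts were the larger share of the deficient-labelled library. Fn1, a monocyte and macrophage gene, was 2.15 (1.51 to 2.87), with 83 of 250 deficient-labelled UMIs in 1 barcode. With the gate on thinned UMIs Fn1 turned to -2.10 and Retnla to -5.80. The part of these cells in the values was not tested.

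Bcl2l14, Cd207 and Pxdc1 were also among the 10 highest. Cd207 (langerin), a lectin of Langerhans cells and of some mouse cDC1, had 20.2 CPM in deficient-labelled and 3.41 CPM in wild-type-labelled cDC1, a log2 ratio of 2.57 (1.54 to 3.81). Its UMIs lay in 31 of the deficient-labelled and 6 of the wild-type-labelled members, and the ratio was 2.96 without the richest barcodes. Deficient-labelled cDC2 had 5.70 CPM and wild-type-labelled cDC2 0.454 CPM of Cd207, and C1q macrophages had 46.5 and 5.14 CPM. Bcl2l14, a gene of the Bcl-2 family, had 19.7 CPM in deficient-labelled and 2.99 CPM in wild-type-labelled cDC1, a log2 ratio of 2.72 (1.64 to 4.07). Pxdc1 was 2.23 (1.31 to 3.33).

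Of 16 cytokine receptor genes, 3 were higher and none lower, with a median of 0.24. Csf2rb, the shared beta chain of the receptors for GM-CSF and interleukins 3 and 5, had 985 CPM in deficient-labelled and 532 CPM in wild-type-labelled cDC1, a log2 ratio of 0.89 (0.80 to 0.98). Csf2ra, the alpha chain for GM-CSF, was 0.61 (0.40 to 0.83), and Csf1r, the receptor of macrophage growth factor, was 0.65 (0.18 to 1.14). With the gate on thinned UMIs Csf2ra was 0.32, and at a minimum of 1 UMI of Xcr1 and Clec9a Csf1r was 0.25, both within 1.5-fold. Csf1r is also one of the macrophage markers, whose sums were 211 CPM in deficient-labelled and 104 CPM in wild-type-labelled cDC1, and their part in its value was not tested. Csf2rb leaned the same way in cDC2, at 0.44 and within 1.5-fold, and in C1q macrophages, at 0.73. Its B cell level was 150.0 CPM in the deficient-labelled and 43.8 CPM in the wild-type-labelled library.

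Stress and handling leave their own marks on sorted or dissociated cells. Heat shock genes were higher in deficient-labelled cDC1, 4 of 12 and none lower, with a median of 0.46 in cDC1 and 0.54 in cDC2. At a minimum of 3 UMIs of Xcr1 and Clec9a, 1 of 12 was higher. Hsph1, a co-chaperone, had 220 CPM in deficient-labelled and 90.9 CPM in wild-type-labelled cDC1, and Hspa1a, the inducible Hsp70, had 618 and 357 CPM. Hsph1 was 0.42 without barcodes of the G2 and M phase list and Hspa1a 0.33 without barcodes with a Cd209a UMI, within 1.5-fold. Hspd1, the mitochondrial chaperonin, was 0.77 (0.61 to 0.94), and Hspb1 rested on 76 of 139 deficient-labelled and 26 of 29 wild-type-labelled UMIs in 1 barcode. Immediate-early genes went the other way, with 2 of 17 lower, none higher and a median of -0.16 in cDC1 and -0.23 in cDC2. Fos had 590 CPM in deficient-labelled and 904 CPM in wild-type-labelled cDC1, and Egr1 had 67.0 and 113 CPM, with lower values also in deficient-labelled C1q macrophages, at -0.62 and -1.29. Without barcodes of the G2 and M phase list Fos was -0.30 in cDC1. The part of the handling of each library in these differences was not tested.

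Energy metabolism showed little, with 1 of 15 genes of glycolysis lower and none of 17 nuclear genes of the respiratory chain past 1.5-fold, at medians of 0.03 and -0.13. The exception was Hk2 (hexokinase 2), with 169 CPM in deficient-labelled and 291 CPM in wild-type-labelled cDC1, and it was -0.55 with the gate on thinned UMIs, short of 1.5-fold. Of 10 genes of retinoic acid and TGF-beta activation, pathways by which gut dendritic cells steer regulatory T cells, Tgfbr1 was higher at 0.60 (0.19 to 1.03), or 0.54 without barcodes with a Cd209a UMI. None of 4 genes for sensing and transport of butyrate, a product of gut bacteria, passed 1.5-fold. None of 8 genes for tryptophan and arginine enzymes was measured.

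The study's own axis of Nr4a and C/EBP factors held no gene past 1.5-fold of 7 measured in cDC1, with a median of 0.07. Nr4a1, which marks the passage to Ly6C-low monocytes, had 310.0 CPM in deficient-labelled and 427 CPM in wild-type-labelled cDC1, a log2 ratio of -0.46 (-0.57 to -0.35). Cebpb had 96.3 CPM in deficient-labelled and 65.7 CPM in wild-type-labelled cDC1, a log2 ratio of 0.55 (0.29 to 0.82).

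Within each library the members varied along the same genes. After thinning, 3573 genes were ranked by the variance of their counts over the mean, which is near 1 for pure counting and had a median of 1.06 in both libraries. Malat1 (11.5 in deficient-labelled and 13.7 in wild-type-labelled cDC1), Ccl17 (9.62 and 8.65), Cst3 (6.81 and 6.99) and Il1b (6.58 and 6.00) were among the most variable. Ccl17, a chemokine of mature dendritic cells, was found in 16.1% of deficient-labelled and 16.7% of wild-type-labelled cDC1 after thinning, so most barcodes had none. Hspa1a varied more in the deficient-labelled library, at 12.9 against 4.94 in the wild-type-labelled one. Fth1, Tmsb4x, Crip1, Cd74 and Actb were the other genes of this rank. The unnamed locus Gm42418, outside the rule for named genes and singled out after its values were seen, stood first in both libraries.

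Gradients within the members were described by splitting them on 1 gene, a choice made with the values seen, and get no test. Members with at least 2 Ccr7 UMIs were 161 in the deficient-labelled and 33 in the wild-type-labelled library, and those with none were 118 and 56. In deficient-labelled cDC1 Il12b was 105 CPM in the first and 4.59 CPM in the second, and in wild-type-labelled cDC1 381 and 7.90 CPM. Cenpf, a gene of mitotic chromosomes, ran the other way, with 17.3 against 70.4 CPM in deficient-labelled and 14.9 against 87.7 CPM in wild-type-labelled cDC1. Hspa1a was also lower beside Ccr7, with 299 against 1220.1 CPM in deficient-labelled and 52.3 against 441 CPM in wild-type-labelled cDC1. Members rich in Ccr7 thus held more Il12b and less Cenpf and Hspa1a in both libraries. For Il12b, a single barcode held 115 of 379 deficient-labelled and 195 of 318 wild-type-labelled cDC1 UMIs, so its levels here rest on few barcodes. Their median depths were close, 17306 and 16799.5 UMIs in the deficient-labelled and 22818 and 21828.5 in the wild-type-labelled library.

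Itgae divided the members as well, with 216 deficient-labelled and 53 wild-type-labelled barcodes at 2 or more UMIs and 94 and 35 at none. Those with Itgae were deeper, at a median of 18473 against 14131.5 UMIs in the deficient-labelled and 25748 against 16208 in the wild-type-labelled library. Apol7c, an apolipoprotein L gene of mouse cDC1, had 155 against 21.9 CPM in deficient-labelled and 137 against 0 CPM in wild-type-labelled cDC1. Serpinb6b, a protease inhibitor gene, had 177 against 27.3 CPM in deficient-labelled and 49.7 against 7.35 CPM in wild-type-labelled cDC1. Sirpa, which marks cDC2, had 14.5 against 52.6 CPM in deficient-labelled and 5.84 against 35.3 CPM in wild-type-labelled cDC1. Members without Itgae thus held more of a cDC2 gene in both libraries.

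Some members carried the cDC2 marker itself, 36 of the deficient-labelled and 16 of the wild-type-labelled library with at least 2 Cd209a UMIs, against 286 and 80 with none. Mgl2 had 548 against 17.7 CPM in deficient-labelled and 267 against 4.96 CPM in wild-type-labelled members. Zeb2 had 333 against 47.7 CPM in deficient-labelled and 215 against 38.0 CPM in wild-type-labelled members. These barcodes hold RNA of both lineages, and whether they are doublets was not tested, because the doublet caller marked 6 barcodes in each library, too few for its calls to be used. Removal by doublet score rank would take 16 of 348 deficient-labelled and 1 of 102 wild-type-labelled members.

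Within barcodes, some lists varied together and others apart. UMIs of the S phase and of the G2 and M phase lists, both counted after thinning, had a Pearson r of 0.33 over 347 deficient-labelled and 0.39 over 102 wild-type-labelled barcodes. Maturation against heat shock had -0.27 and -0.33, and maturation against G2 and M phase had -0.15 and -0.30. Barcodes of 1 library share its depth and its free RNA, and these values are a description.

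The ligand of XCR1 was read in its known sources. Xcl1 had 1782 CPM in natural killer cells and type 1 innate lymphoid cells of the deficient-labelled and 1187 CPM in those of the wild-type-labelled library, and 370 and 304 CPM in T cells. Flt3l, the growth factor of dendritic cells, had 32.5 CPM in fibroblasts of the deficient-labelled and 10.9 CPM in those of the wild-type-labelled library, which held 18 such barcodes. Its receptor gene Flt3 had 129 CPM in deficient-labelled and 119 CPM in wild-type-labelled cDC1, and 83.9 and 114 CPM in cDC2.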

How the data were processed

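Single-cell libraries were made with the 10x Genomics Single Cell 3' v3 chemistry, 1 per genotype, per the labels' protocols. The authors deposited a filtered matrix of UMI counts per gene and barcode for each library, made with Cell Ranger and STAR 2.5.1b against mm10, per the submitters' processing notes, and the file headers name version 3.0.2. No normalization had been applied to the deposited counts, and the reads were counted as unique molecular identifiers, so that PCR copies count once.

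From the 31053 features, 36 that share a gene symbol were summed, leaving 31017 genes. Barcodes with at least 200 genes and at most 20% mitochondrial UMIs were kept, and populations were gated on raw UMIs. No clustering or imputation was used. Gene positions are those of the GENCODE annotation of mm10. Counts were summed per library and population and given as CPM. Ratios have exact conditional binomial intervals, levels exact Poisson intervals and shares exact Clopper-Pearson intervals, all at 95%. A gene was measured with at least 100 UMIs over both groups, and called at 1.5-fold between libraries or at 2-fold in the same direction in both libraries between cDC1 and cDC2. These sizes are no test. A fold against 0 UMIs used a floor of 3 counts over the group. Shares of barcodes with a UMI were taken after thinning each barcode at random to 2000 UMIs, which left out 1 deficient-labelled cDC1 and no wild-type-labelled one. Calculations used Python 3.11.15 with scanpy 1.11.5 (for Scrublet), matplotlib 3.10.9, pandas 2.3.3, scipy 1.17.1 and numpy 2.4.6, and the ratio script was tested on simulated data.

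The members, gene lists and splits were chosen with earlier results of these data known. Named genes were the rule genes and markers, lncly6c, Nr4a1 and Cebpb, up to 4 measured members per list with the largest ratio, the 10 highest and 10 lowest between libraries, the 15 highest and 10 lowest against cDC2, and the 10 most variable, without immunoglobulin, T cell receptor, mitochondrial, ribosomal protein and unnamed genes. Of 457 listed genes, 2 were not matched and are not analysed here. The alternatives were other gate thresholds, a gate on thinned UMIs, other mitochondrial limits, doublet removal, other scalings and other UMI minimums. The gate on thinned UMIs lowered the minimums of Xcr1 and Clec9a and of H2-Ab1. Its limits on C1q genes, Fscn1, Cd3 genes and Ms4a1 stayed unchanged and were thus looser at that depth. It held 219 deficient-labelled and 54 wild-type-labelled members. Leaving out barcodes with a Cd209a UMI, barcodes with at least 2 UMIs of the G2 and M phase list, or each gene's richest barcodes was added after seeing the data. Without the barcodes of the G2 and M phase list, 182 deficient-labelled and 37 wild-type-labelled members were left.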

Additional observations from a re-analysis of the deposited data

Results flagged for a closer look

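For 10 genes past 1.5-fold between the libraries in cDC1, the ratio in Cd209a cDC2 was past 1.5-fold in the opposite direction. With 1 library per genotype the difference between the lineages was not tested for any of them. Values are log2 ratios of deficient-labelled over wild-type-labelled, cDC1 first.

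Il12b was -1.17 in cDC1 and 0.87 in cDC2, where the richest barcode held 88 of 1307 deficient-labelled and 80 of 420 wild-type-labelled UMIs. The interferon-gamma target Cxcl9 was -1.40 in cDC1 and 0.88 in cDC2. Irf7 was -1.13 in cDC1 and 0.78 in cDC2, with 52 of 146 deficient-labelled cDC2 UMIs in 1 barcode. In cDC1 Il12b was -0.33 without the richest barcodes and 1.80 with the gate on thinned UMIs, where Cxcl9 was -0.37.

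Ccl2, a monocyte attractant, was 0.97 in cDC1 and -0.77 in cDC2. Edn1, the endothelin-1 gene, was 1.78 in cDC1 and -0.95 in cDC2, from 101 deficient-labelled and 11 wild-type-labelled cDC1 UMIs. Ltc4s, the leukotriene C4 synthase gene, was 0.92 in cDC1 and -0.76 in cDC2. Macc1 was 0.88 in cDC1 and -0.66 in cDC2, and the histone gene Hist1h4i was -0.96 in cDC1 and 0.60 in cDC2.

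For the neutrophil genes S100a8 and S100a9, 1 barcode held much of the UMIs in each lineage, and without the richest barcodes cDC1 were at -3.60 for S100a8 and -4.04 for S100a9. S100a8 was -3.96 in cDC1 and 2.08 in cDC2, where 161 of 252 deficient-labelled UMIs lay in 1 barcode. S100a9 was -4.34 in cDC1 and 1.21 in cDC2, where 185 of 339 deficient-labelled UMIs lay in 1 barcode.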

How the results depend on the processing

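No paired analysis was possible because each genotype was 1 library. Over 139 named genes and 13 alternative settings, 1693 values were recomputed. Of these 1459 stayed within their counting spread and 229 moved beyond it. The other 5 changed sign, which was counted only for genes past 1.5-fold as reported. Sign changes of the other named genes are among the first 2 counts. Of 74 genes past 1.5-fold, 29 were past it in every setting that measured them, among them Tlr3, Il10, Irf7, Isg15, Top2a, Nusap1, Csf2rb, Cd207 and Runx3. Markers of other cells were among the 29 as well, namely Jchain, Mgp, Dcn, Col3a1, Spink4, S100a8 and S100a9. Passing every setting thus does not tell RNA of cDC1 from RNA of other cells. A gene below 100 UMIs in a setting has no value there. The cause of the 5 sign changes among these 74 genes was not tested. With the gate on thinned UMIs they were Il12b at 1.80, Tnf at 0.62, Retnla at -5.80 and Fn1 at -2.10. The last was Il12b at 0.036 without barcodes of the G2 and M phase list. The gate on thinned UMIs kept its exclusion limits unchanged, which is looser at lower depth, so its members differ from those of the rule.

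In every setting tried, deficient-labelled cDC1 were the larger share. Of kept barcodes it was 10.3% in the deficient-labelled and 7.05% in the wild-type-labelled library with a minimum of 1 UMI of Xcr1 and Clec9a, 4.23% and 3.03% with a minimum of 3, 4.20% and 2.71% with the gate on thinned UMIs, and 4.86% and 3.07% without Cd209a barcodes. Of barcodes passing the other criteria it was 24.2% and 20%, 9.88% and 8.59%, 7.38% and 5.25%, and 11.3% and 8.70% in the same settings. It was 15.6% in the deficient-labelled library with a minimum of 20 H2-Ab1 UMIs.

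The number of genes past 1.5-fold followed the UMI minimum, with 529 higher and 539 lower at 50 UMIs, 144 and 156 at 200, and 1439 and 1891 with none. Against cDC2, 516 were higher with no minimum, 174 were higher and 281 lower with the gate on thinned UMIs, 199 were lower with a minimum of 1 Xcr1 and Clec9a UMI, and 165 were higher without barcodes of the G2 and M phase list. Wild-type-labelled values rest on 102 barcodes, and depth limits the genes near 100 UMIs, whose counting intervals are wide.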
